A study of Mus musculus with 6 samples.

Results

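The core loop of the circadian clock was followed through 8 genes, the activators Arntl, Clock and Npas2 and the repressors Per1, Per2, Per3, Cry1 and Cry2. They were taken by symbol from the deposited count table of 37620 genes, and all 8 were among the 14738 genes with enough counts to be tested. Messenger RNA was sequenced from the apex of wild-type C57/BL6J mouse hearts after 30 min of ischaemia and 120 min of reperfusion, in 3 libraries from mice given dexmedetomidine beforehand and 3 from mice given its vehicle. Dexmedetomidine, a sedative agonist of alpha-2 adrenergic receptors, was infused by tail vein over 10 min at 10 µg/kg, 30 min after yohimbine vehicle and 20 min before surgery. Yohimbine blocks those receptors. Vehicle mice received the vehicles of both drugs separately before surgery, with no interval stated. The sources used here do not give age, sex, the clock time at which hearts were taken, or whether each sample was a separate animal. No heart without ischaemia was analysed here.

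In the clock loop of mammals, BMAL1, the product of Arntl, pairs with CLOCK or with its paralogue NPAS2 and binds E-box sequences, from which it drives transcription of the Per and Cry genes. PER and CRY proteins accumulate, enter the nucleus and inhibit the activator pair, so Arntl transcripts and Per transcripts peak at opposite times of day. A second loop of nuclear receptors acts on Arntl, with ROR proteins activating and REV-ERB proteins repressing it. Cardiomyocytes hold such a clock of their own, which sets daily rhythms of metabolism and electrical activity in the heart.

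Gene counts summed to 42.7 to 48.6 M per dexmedetomidine library and to 50.3 to 56.6 M per vehicle library, and mitochondrially encoded genes took 27.1% to 38.2% of them after dexmedetomidine and 22.01% to 25.2% after vehicle, without overlap. Vehicle replicate 2 stood apart in immediate early genes, with Fos at 608 CPM, where the dexmedetomidine libraries had 21.8 to 60.15 CPM and the other vehicle libraries 34.3 and 39.9 CPM. CPM are counts per 1000000 reads in genes, scaled by TMM normalisation. The markers of the labelled tissue were plentiful, with 6 cardiomyocyte transcripts summing to 33831 to 35909.8 CPM in the dexmedetomidine libraries and 36188 to 41881 in the vehicle libraries. Fibroblast markers summed to 1099 to 1319 CPM after dexmedetomidine and 895 to 1004 CPM after vehicle, and smooth muscle and pericyte markers to 1224 to 1406 CPM after dexmedetomidine and 923 to 1034 CPM after vehicle. These 3 marker sums did not overlap between the groups. Of 6 genes in each list, 4 cardiomyocyte markers were lower after dexmedetomidine, 5 fibroblast markers were higher, and 4 smooth muscle and pericyte markers were lower although their sum was higher. The part of these markers and of the mitochondrial share in the clock results was not tested. Summed levels overlapped for the endothelial, macrophage, neutrophil, lymphocyte, adipocyte, atrial and red cell lists, Ucp1 and Shox2 were at 0 in each library, and Adipoq, Plin1, Lep, Cidec, Retn, Myl7 and Sln in at least 1. In bulk tissue, fewer cells of a type and less RNA per cell cannot be told apart.

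The activators were all higher and the repressors all lower after dexmedetomidine, but no member passed an adjusted p of 0.05 in edgeR's quasi-likelihood test, which called 0 of all 14738 genes (0%). The median log2 fold change, dexmedetomidine over vehicle, was 1.08 for the 3 activators and -0.48 for the 5 repressors, beside 0.0032 over all tested genes. At an unadjusted p under 0.05 edgeR had 3 of 3 activators higher, against 12.5% of all tested genes, and 3 of 5 repressors lower, against 9.03%. In DESeq2, 2 activators were called higher and 3 repressors lower at an adjusted p of 0.05, against 5.97% and 2.66% of all tested genes. With the trends over GC content and length removed, DESeq2 called 0 activators and 0 repressors, against 0.923% higher and 0.963% lower. In limma-voom with quality weights the counts were 1 and 3, against 8.79% and 5.2%. These tools called 1272 and 2063 genes in all, where edgeR had 3172 (21.5%) at an unadjusted p under 0.05. Without a low count filter edgeR called Clock higher and Cry2 lower, against 1.35% and 0.528% of all genes fitted. Without vehicle replicate 3 it called Clock higher and Cry1 lower, against 6.13% and 2.19%. Since nothing says that samples came from separate animals, p-values cover only the spread from sample to sample.

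Promoter windows of the members were searched for the sequence elements of the loop. RefSeq windows on GRCm38.p6, from 250 bases before a start site to 50 after it, were found for 7 of the 8 members (11 windows), all but Per2. Capitals mark matches, on either strand, to the E-box CACGTG, the related CACGTT, the D-box TTATGNAA bound by DBP and its relatives and by NFIL3, or the ROR and REV-ERB element NTAGGTCA. The 4 windows shown are the one of Arntl that holds an element of the second loop and the 3 of repressors that hold an E-box or D-box:
Arntl, chr7:113207261-113207560, plus strand: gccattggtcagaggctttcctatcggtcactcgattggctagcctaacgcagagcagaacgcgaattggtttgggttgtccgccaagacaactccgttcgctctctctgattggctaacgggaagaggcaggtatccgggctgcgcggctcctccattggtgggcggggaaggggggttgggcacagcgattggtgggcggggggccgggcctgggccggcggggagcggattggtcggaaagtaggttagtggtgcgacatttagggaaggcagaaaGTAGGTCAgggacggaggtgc
Per1, chr11:69098699-69098998, plus strand: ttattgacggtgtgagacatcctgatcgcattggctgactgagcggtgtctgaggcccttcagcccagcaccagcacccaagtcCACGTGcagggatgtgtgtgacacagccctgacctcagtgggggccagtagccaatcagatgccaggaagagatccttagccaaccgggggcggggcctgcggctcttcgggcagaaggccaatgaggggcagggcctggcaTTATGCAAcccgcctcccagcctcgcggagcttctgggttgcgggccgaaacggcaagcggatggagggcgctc
Per3, chr4:151044616-151044915, minus strand: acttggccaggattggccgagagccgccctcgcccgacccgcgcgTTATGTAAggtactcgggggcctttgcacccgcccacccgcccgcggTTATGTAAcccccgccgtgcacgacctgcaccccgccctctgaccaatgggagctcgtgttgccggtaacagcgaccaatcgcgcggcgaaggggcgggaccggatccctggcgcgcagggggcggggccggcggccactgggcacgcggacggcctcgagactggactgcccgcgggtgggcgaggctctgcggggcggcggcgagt
Cry1, chr10:85185005-85185304, minus strand: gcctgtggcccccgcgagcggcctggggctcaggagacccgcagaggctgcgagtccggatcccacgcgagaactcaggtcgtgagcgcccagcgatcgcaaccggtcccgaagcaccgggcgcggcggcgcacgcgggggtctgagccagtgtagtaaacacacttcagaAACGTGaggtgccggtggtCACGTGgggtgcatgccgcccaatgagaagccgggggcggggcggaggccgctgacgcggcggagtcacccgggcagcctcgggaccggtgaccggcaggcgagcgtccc
The Per1 window held an E-box starting at base -166 and a D-box at base -24, counted from the start site. The Per3 window held 2 D-boxes and no E-box, and the Cry1 window held an E-box and, on its other strand, a CACGTT. The ROR and REV-ERB element of Arntl lay 30 bases into the transcript. Among all 32851 windows, 7.15% held CACGTG, 4.68% CACGTT, 3.38% the D-box and 2.59% the ROR and REV-ERB element. The Cry2 window held 1 CACGTT, while none of these letters was in the windows of Clock or Npas2. No member window held the cyclic AMP response element TGACGTCA (1.79% of all windows) or the palindromic glucocorticoid response element (0.0487%). A match describes the letters of the window and is not a binding site.

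Arntl, the partner that each activator pair needs, measured 17.4, 5.26 and 13.1 CPM in dexmedetomidine replicates 1, 2 and 3, against 4.98, 6.59 and 4.43 CPM in vehicle replicates 1, 2 and 3. Replicates 1 and 3 of the dexmedetomidine group stood above each vehicle library, and replicate 2 lay inside the vehicle range, so the groups overlapped. Means were 11.9 ± 6.14 CPM with dexmedetomidine and 5.33 ± 1.12 CPM with vehicle (SD, n = 3 each), a 2.24-fold difference (log2 fold change 1.16, SE 0.39, edgeR adjusted p = 0.149). Without dexmedetomidine replicate 2 the log2 fold change of Arntl was 1.51, and without dexmedetomidine replicate 1 it was 0.78.

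Clock, which codes for the partner of BMAL1, had 44.2, 40.1 and 50.8 CPM after dexmedetomidine, against 22.2, 15.7 and 26.1 CPM after vehicle. Each dexmedetomidine library was above each vehicle library, and replicate 2 of that group stood with the other two. Means of 45.0 ± 5.399 CPM with dexmedetomidine and 21.3 ± 5.26 CPM with vehicle (SD, n = 3 each) gave a 2.11-fold difference (log2 fold change 1.08, SE 0.19, edgeR adjusted p = 0.101). By p Clock ranked 16 among the 14738 genes, and its DESeq2 adjusted p was 0.000105. With the trends over GC content and length removed, its log2 fold change was 0.42 and its DESeq2 adjusted p 0.0887. Without vehicle replicate 3 its edgeR adjusted p was 0.0109, and over the other libraries left out in turn it lay between 0.0747 and 0.371.

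Npas2, the paralogue that can stand in for CLOCK, was the scarcest member, with 102 to 351 counts per library. It measured 6.83, 2.85 and 4.62 CPM after dexmedetomidine and 2.78, 2.06 and 2.58 CPM after vehicle. The groups did not overlap, though dexmedetomidine replicate 2 exceeded vehicle replicate 1 by little. Its log2 fold change was 0.95 (SE 0.33, edgeR adjusted p = 0.144), and 0.59 without dexmedetomidine replicate 1.

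Per1, a repressor that also answers to hormones and to cyclic AMP, measured 85.7, 95.7 and 82.0 CPM after dexmedetomidine, against 114, 121 and 126 CPM after vehicle. All dexmedetomidine libraries were below all vehicle libraries, and vehicle replicate 2, where Fos was high, did not stand apart in Per1. Its mean was 87.8 ± 7.08 CPM with dexmedetomidine and 121 ± 6.07 CPM with vehicle (SD, n = 3 each), with a coefficient of variation of 8.07% among dexmedetomidine libraries and 5.04% among vehicle libraries. The log2 fold change was -0.46 (SE 0.12, edgeR adjusted p = 0.109). With the trends over GC content and length removed it was -0.17, and the groups overlapped.

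Per2, a core repressor whose loss disrupts rhythms in mice, had 21.7, 53.8 and 32.9 CPM after dexmedetomidine, against 53.2, 51.7 and 46.0 CPM after vehicle. Dexmedetomidine replicate 2 was above all vehicle libraries and the other two were below them all. Its log2 fold change of -0.48 (SE 0.29, edgeR adjusted p = 0.372) had a 95% interval from -1.13 to 0.18. It was -0.88 without dexmedetomidine replicate 2 and -0.22 without dexmedetomidine replicate 1. Per3, the family member with the mildest loss-of-function effect on rhythms in mice, measured 9.30, 19.0 and 12.5 CPM after dexmedetomidine and 17.1, 11.3 and 25.1 CPM after vehicle. Its groups overlapped, and the vehicle libraries were themselves spread, with a coefficient of variation of 38.7%. The log2 fold change was -0.39 (SE 0.33, edgeR adjusted p = 0.537), and it was -0.72 without dexmedetomidine replicate 2 and -0.066 without vehicle replicate 3.

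The cryptochrome genes, which code for the strongest inhibitors of the activator pair, were lower in each dexmedetomidine library than in any vehicle library. Cry1 had 19.1, 25.2 and 17.1 CPM after dexmedetomidine, against 34.8, 34.0 and 25.5 CPM after vehicle. For this gene, dexmedetomidine replicate 2 lay just below vehicle replicate 3. Its log2 fold change was -0.62 (SE 0.18, edgeR adjusted p = 0.115), and its edgeR adjusted p was 0.0372 without vehicle replicate 3. Cry2 had 31.7, 45.6 and 32.7 CPM after dexmedetomidine, against 55.6, 59.0 and 55.1 CPM after vehicle. Its vehicle libraries lay close together (coefficient of variation 3.73%), and dexmedetomidine replicate 2 was again the nearest to them. The log2 fold change was -0.63 (SE 0.15, edgeR adjusted p = 0.107, DESeq2 adjusted p = 0.0121).

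**Figure D1:**
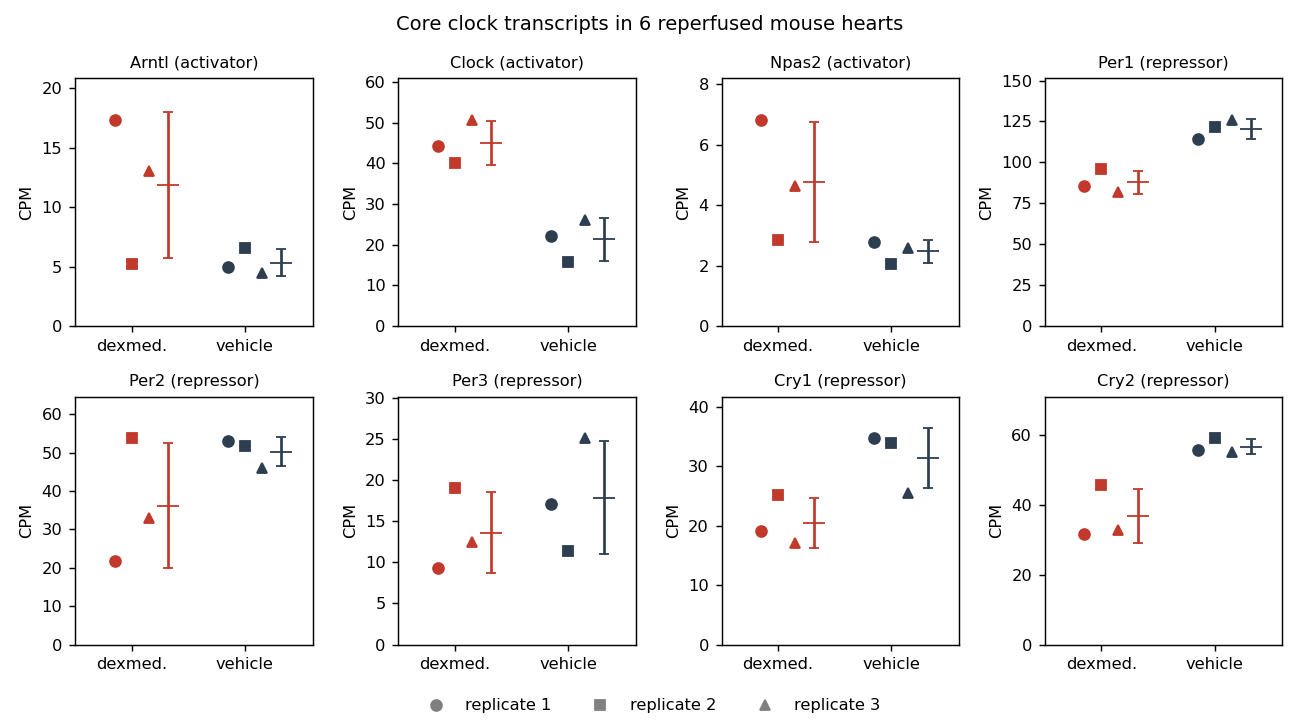
Level of each clock gene in CPM (y axes, linear, from 0) in the 3 dexmedetomidine and 3 vehicle libraries, with 1 symbol per replicate number and the mean ± SD beside each group. The groups do not overlap for Clock, Npas2, Per1, Cry1 and Cry2, and the square of dexmedetomidine replicate 2 lies inside or near the vehicle range for Arntl, Per2 and Per3.

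Groups thus did not overlap for 5 of the 8 members, 2 activators higher and 3 repressors lower, where 15.6% of all tested genes were higher and 12% lower without overlap. Dexmedetomidine replicate 1 lay outside the vehicle range in the direction of its arm for 8 of 8 members and replicate 3 for 7, all but Per3. Replicate 2 did so for 5, Clock, Npas2, Per1, Cry1 and Cry2. With the trends over GC content and length removed, replicate 1 did so for 8, replicate 3 for 7 and replicate 2 for 3, Clock, Npas2 and Cry2. The share of all tested genes was not taken for single libraries, so these counts are not read as a result about the members. As mean log2 CPM, the activators stood at 4.12, 3.09 and 3.87 in the dexmedetomidine replicates, against 2.77, 2.59 and 2.75 in the vehicle replicates. The repressors stood at 4.67, 5.35 and 4.83 in the dexmedetomidine replicates, against 5.52, 5.42 and 5.52 in the vehicle replicates. On this scale of arm levels, both arms of dexmedetomidine replicate 2 were the nearest of that group to the vehicle libraries.

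The mean log2 CPM of the activators less that of the repressors was -0.54, -2.26 and -0.97 in the dexmedetomidine replicates, against -2.75, -2.83 and -2.77 in the vehicle replicates. It averaged -1.26 ± 0.896 (SD, n = 3) after dexmedetomidine, against -2.78 ± 0.0405 (SD, n = 3) after vehicle, a difference of 1.53. On this score the vehicle libraries were nearly equal, and the spread lay in the dexmedetomidine group. Single members were less equal among vehicle libraries, with coefficients of variation of CPM of 24.7% for Clock and 38.7% for Per3. For Clock and Per3 that coefficient was larger with vehicle than with dexmedetomidine, and for all other members it was smaller. Leaving out dexmedetomidine replicate 2 gave a difference of 2.03 and leaving out dexmedetomidine replicate 1 gave 1.17. No p is given for this score, since the members were chosen with earlier results of these data known.

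**Figure D2:**
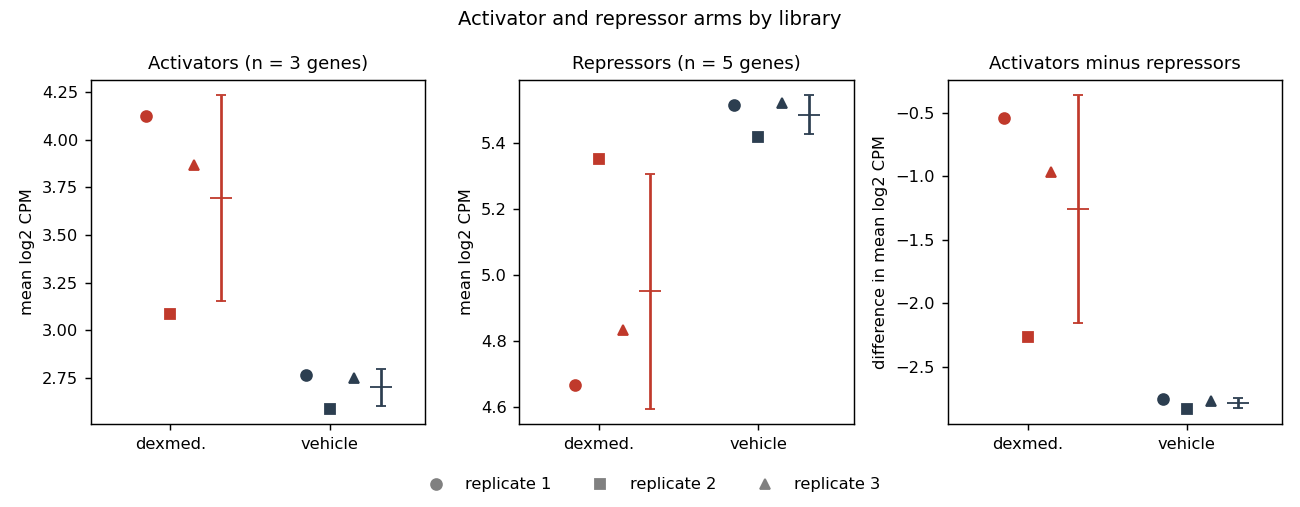
Mean log2 CPM of the 3 activators, of the 5 repressors, and the first less the second (y axes, which do not start at 0), for each of the 6 libraries, with mean ± SD beside each group. The vehicle libraries lie between -2.83 and -2.75 in the right panel and the dexmedetomidine libraries between -2.26 and -0.54.

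Per length, as RPKM (reads in a gene over its length and the library total, from the deposited gene lengths), Per1 was the most abundant member in both groups, at 15.6 ± 1.26 after dexmedetomidine and 21.4 ± 1.08 after vehicle. In the vehicle libraries, Cry1 (10.4 RPKM), Cry2 (8.95) and Per2 (8.61) formed a middle layer with overlapping ranges. Clock (2.41 RPKM), Per3 (1.86) and Arntl (1.82) formed a lower layer, and Npas2 (0.516) the lowest, each layer clear of the next. In the dexmedetomidine libraries only Per1 was clear of its neighbour. There Cry1 (6.79 RPKM), Per2 (6.19), Cry2 (5.80), Clock (5.10) and Arntl (4.07) ran into each other, and Per3 (1.42) and Npas2 (0.995) came last, with neighbours overlapping. With raw library totals in place of TMM, 14 of the 16 means moved by less than 1 SD, the exceptions being Per1 at 22.5 and Cry2 at 9.38 RPKM in the vehicle libraries.

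Differences were also taken within families and across the arms. Differences in log2 CPM between genes carry a constant for their lengths, so only their comparison between groups is read. Cry1 less Cry2 was -0.84 ± 0.106 (SD, n = 3) after dexmedetomidine, against -0.86 ± 0.223 (SD, n = 3) after vehicle, and the ranges overlapped. Per1 less Per2 was 1.38 ± 0.577 with dexmedetomidine and 1.26 ± 0.179 with vehicle, also with overlap. Npas2 less Clock was -3.31 ± 0.567 with dexmedetomidine and -3.07 ± 0.221 with vehicle, with overlap. Across the arms, Clock less Cry1 was 0.67 to 1.57 in the dexmedetomidine libraries and -1.11 to 0.0299 in the vehicle libraries, without overlap. That follows from Clock being higher and Cry1 lower without overlap, and adds nothing to those results. The difference was not taken with the trends over GC content and length removed. Arntl less Per2 was -0.32, -3.34 and -1.33 in the dexmedetomidine replicates and -3.40, -2.96 and -3.37 in the vehicle replicates, so that replicate 2 of the dexmedetomidine group lay inside the vehicle range.

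Fold changes in this comparison ran with GC content, with medians of 0.47, 0.15, -0.01, -0.15 and -0.30 log2 in 5 equal bins of genes from low to high GC. Of the members, Clock was in the lowest bin (GC 40.9%), Arntl and Cry1 in the middle one, Npas2, Per2 and Per3 in the next and Per1 (59.4%) and Cry2 in the highest. Against its own bin, Arntl was above 98.8% of genes, Npas2 above 98.8% and Clock above 83.6%. Among repressors, 4.19% of the bin lay below Cry1, 11.8% below Per2, 13.9% below Cry2, 17.4% below Per3 and 27.0% below Per1.

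When each library's trend with GC content and length was removed, log2 fold changes were 1.11 for Arntl, 1.00 for Npas2 and 0.42 for Clock. They were -0.55 for Cry1, -0.46 for Cry2, -0.39 for Per3, -0.35 for Per2 and -0.17 for Per1, and the lowest edgeR adjusted p among them was 0.2903. The difference between the arms was then 1.18 where it had been 1.53. By library, the corrected activators less repressors stood at -0.60, -2.46 and -1.23 in dexmedetomidine replicates 1, 2 and 3. In vehicle replicates 1, 2 and 3 the same score was -2.62, -2.54 and -2.67, so dexmedetomidine replicate 2 lay just above the vehicle range. Groups did not overlap for Clock, Npas2 and Cry2 with the correction, where 7.61% of all tested genes were higher and 9.76% lower without overlap. The log2 fold changes of Clock and Per1 shrank, from 1.08 to 0.42 and from -0.46 to -0.17. Those of the other activators moved by little.

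**Figure D3:**
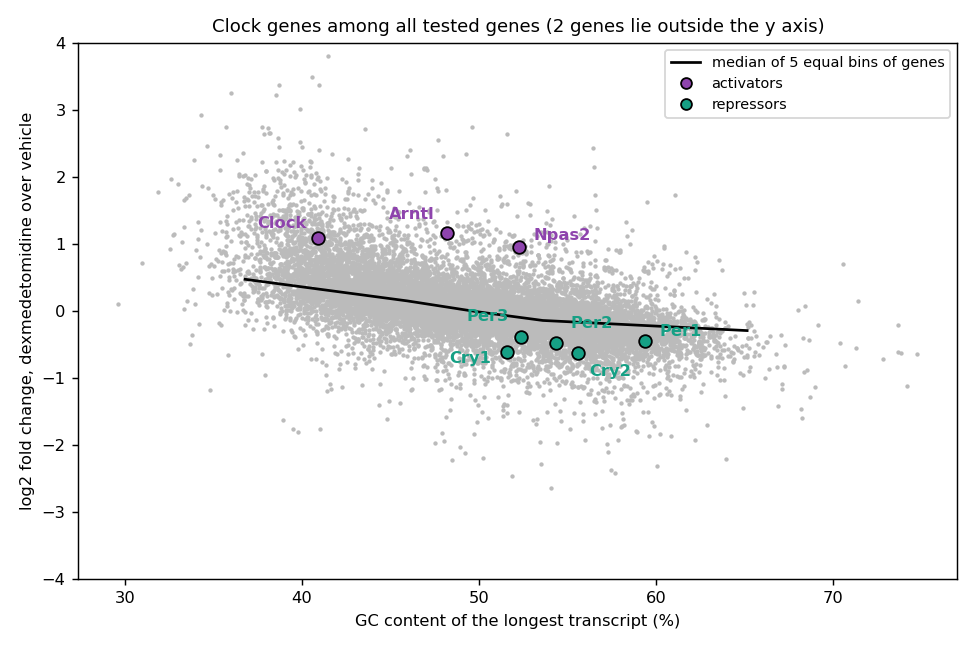
Log2 fold change, dexmedetomidine over vehicle (y axis), against the GC content of the longest transcript in percent (x axis) for all tested genes (grey) and the clock genes (coloured), with the median of 5 equal bins of genes as a line; 2 genes lie beyond the y axis. Activators lie above the line and repressors below it.

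**Figure D4:**
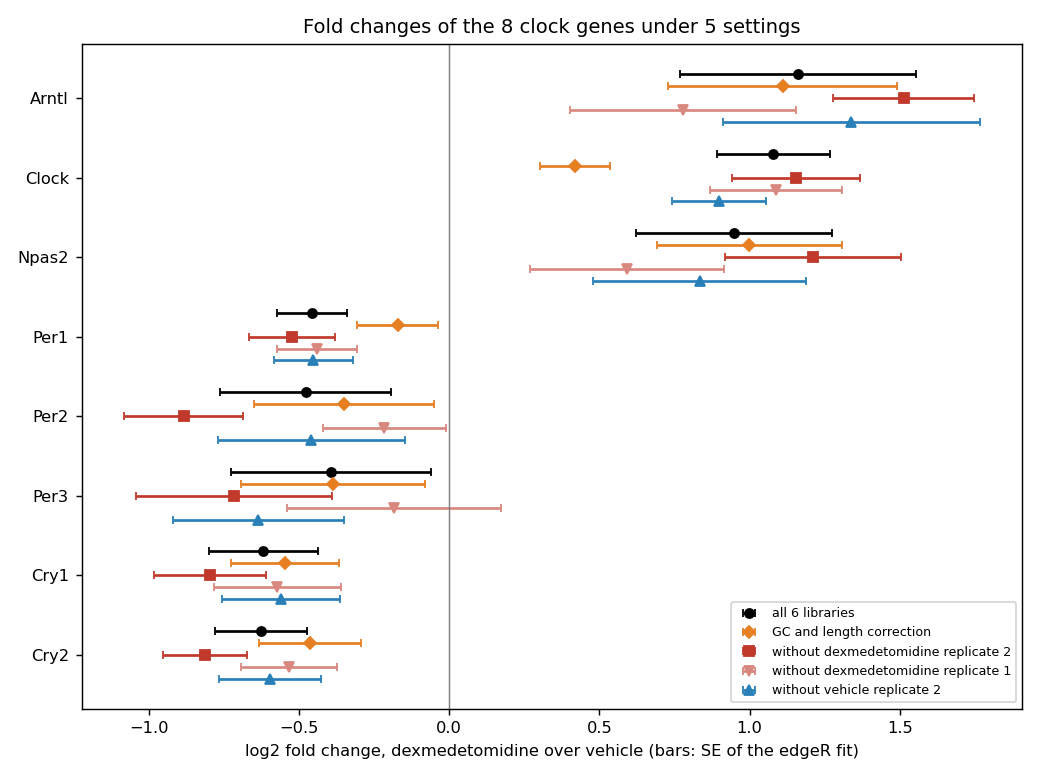
Log2 fold change, dexmedetomidine over vehicle (x axis, bars show the SE of the edgeR fit), of the 8 clock genes (rows) with all 6 libraries, with the GC and length correction, and without dexmedetomidine replicate 1, dexmedetomidine replicate 2 or vehicle replicate 2. All 3 activators stay above 0 and all 5 repressors below 0 in these 5 settings, the repressor value nearest to 0 being Per1 at -0.17 with the correction.

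The rest of the clock pathway was read from lists of other genes, none of which had a member past the edgeR threshold. In the second loop, 4 of 5 genes were higher (median log2 fold change 0.35), with 2 higher at an unadjusted p under 0.05, against 12.5% of all tested genes. Corrected for GC content and length, 2 were higher and 3 lower (median -0.0345). At that p 1 was then higher, against 4.93% of all tested genes. Rora, an activator of Arntl, measured 39.1, 43.2 and 45.3 CPM after dexmedetomidine, against 16.8, 10.9 and 27.2 CPM after vehicle. Those groups did not overlap (log2 fold change 1.21, SE 0.29, edgeR adjusted p = 0.109, and 0.55 once corrected for GC content and length). Nr1d2, which codes for REV-ERB beta, had a log2 fold change of 0.44 (SE 0.17), or -0.077 once corrected. Nr1d1, the gene of REV-ERB alpha and chosen here after its values were seen, had 96.7, 69.7 and 89.9 CPM after dexmedetomidine and 78.9, 108 and 62.6 CPM after vehicle. Its groups overlapped (log2 fold change 0.040, SE 0.20, edgeR adjusted p = 0.935).

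In a list of repressors outside the Per and Cry families, which also held Timeless and Tipin, 4 of 5 genes were lower (median -0.20). Bhlhe41, an E-box competitor also known as DEC2, was at -0.66 (SE 0.28, edgeR adjusted p = 0.226, and -0.42 without vehicle replicate 2) and Tipin, a replication fork protein that partners Timeless, at 0.54 (SE 0.26), or 0.0053 once corrected for GC content and length. Of the D-box factors, 3 of 4 were lower (median -0.63). Dbp, a direct target of the activator pair, measured 36.8, 41.4 and 23.2 CPM after dexmedetomidine, against 72.9, 69.3 and 77.8 CPM after vehicle. Its groups did not overlap, replicate 2 of the dexmedetomidine group included (log2 fold change -1.12, SE 0.20, edgeR adjusted p = 0.101, and -0.72 with the correction). Dbp had a DESeq2 adjusted p of 0.0369 with the correction. Nfil3, which competes with DBP for D-boxes, was at -1.10 (SE 0.50) and at -0.17 without vehicle replicate 2, where it stood at 106 CPM. Hlf was at 0.046 (SE 0.28), or -0.22 once corrected.

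Kinases and phosphatases that act on clock proteins were higher for 6 of 14 genes and lower for 8 (median -0.0938). At an unadjusted p under 0.05, 2 were higher and 3 lower, against 12.5% and 9.03% of all tested genes. Corrected, 3 were higher and 11 lower (median -0.17). At that p 0 were then higher and 2 lower, against 4.93% and 7.71% of all tested genes. Prkaa2, a catalytic subunit of AMP-activated kinase, which marks CRY1 for turnover, was at 0.51 (SE 0.21), and Ppp1cb, a catalytic subunit of protein phosphatase 1, at 0.44 (SE 0.14). Once corrected, Prkaa2 was at -0.16 and Ppp1cb at -0.27. Ppp1ca, another catalytic subunit of that phosphatase, was at -0.40 (SE 0.13), or -0.11 once corrected. The kinase gene Dyrk1a was at -0.40 (SE 0.22), and at -0.22 without vehicle replicate 2. Genes of ubiquitin ligases and deubiquitinases were higher for 8 of 10 members (median 0.17), and for 4 of 10 with the correction. Ube3a, a ligase that can act on BMAL1, had a log2 fold change of 1.26 (SE 0.38), or 0.40 once corrected, and Cul1, a scaffold of SCF ligases, at 0.47 (SE 0.13), or 0.16 once corrected. Fbxl21, an F-box protein gene, was barely detected, at 0.0513 to 0.408 CPM after dexmedetomidine and 0.222 to 0.512 after vehicle.

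Co-regulators of the loop were higher for 10 of 15 genes (median 0.10), with 2 higher and 2 lower at an unadjusted p under 0.05, against 12.5% and 9.03% of all tested genes. Corrected, 9 were higher and 6 lower, with 0 higher and 1 lower at that p, against 4.93% and 7.71% of all tested genes. Sirt1, a deacetylase that binds the activator pair, was at 0.49 (SE 0.15), or 0.15 once corrected. Among inputs to the Per genes, 4 of 11 were higher (median -0.03). Creb1, which codes for the factor that binds cyclic AMP response elements, measured 31.4, 27.2 and 30.5 CPM after dexmedetomidine and 13.8, 7.70 and 18.6 CPM after vehicle. Its groups did not overlap (log2 fold change 1.15, SE 0.28, edgeR adjusted p = 0.108, and 0.40 with the correction). Sik1, a kinase induced by CREB that limits its coactivators, had a log2 fold change of -0.85 (SE 0.30), and -0.49 without vehicle replicate 2. All 10 immediate early genes were lower (median -0.99), Fos at -2.46 (SE 1.35), Junb at -1.21, Dusp1 at -0.70 and Ier2 at -0.58. Without vehicle replicate 2, Fos was at 0.16, Junb at -0.62, Dusp1 at -0.37 and Ier2 at -0.18, where Per1 was at -0.45. Corrected with all libraries, Junb was at -0.75 and Ier2 at -0.15. Without vehicle replicate 3, where edgeR called 6.13% of all genes higher and 2.19% lower, Rora (1.62), Ube3a (1.82) and Creb1 (1.46) were called higher. Bhlhe41 (-0.95), Dbp (-1.07), Nfil3 (-1.45), Dyrk1a (-0.63), Sik1 (-1.11), Junb (-1.44) and Dusp1 (-0.84) were then called lower.

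**Figure D5:**
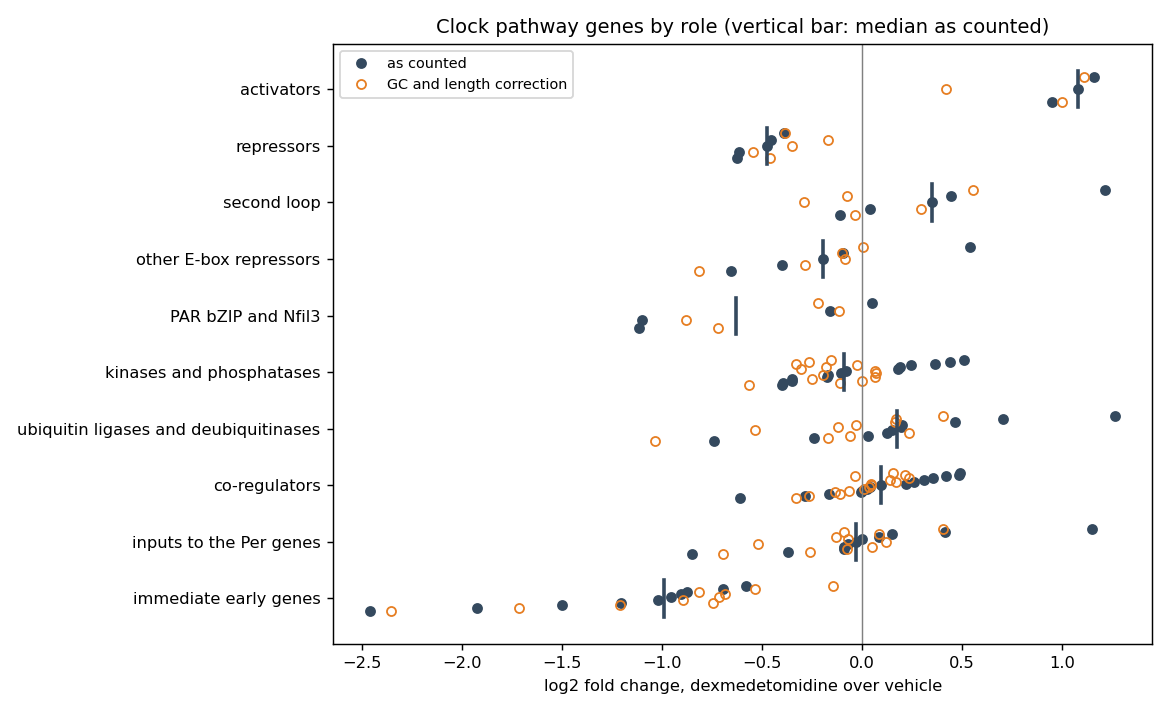
Log2 fold change, dexmedetomidine over vehicle (x axis), of the clock members and of 8 further lists (rows), with 1 filled point per gene as counted, 1 open point with the GC and length correction and a bar at the median of the filled points. The activators are at 0.95 to 1.16 and the repressors at -0.63 to -0.39, and the lists of kinases, co-regulators and inputs straddle 0.

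The genes most like each arm were found by the root-mean-square distance between log2 CPM values centred over the 6 libraries. Nearest to the activator mean were Leo1 (0.166), a subunit of the PAF1 transcription elongation complex, Dio2 (0.186), a thyroid hormone deiodinase, and March1 (0.191), a ubiquitin ligase of immune cells. The median gene was 0.648 away. Leo1 measured 12.3, 7.06 and 9.58 CPM after dexmedetomidine and 4.40, 5.32 and 4.95 CPM after vehicle, and was lowest in replicate 2 of the dexmedetomidine group, as Arntl was. Nearest to the repressor mean were Ephx1 (0.0610), an epoxide hydrolase, Etv5 (0.0689), an ETS transcription factor, and Pdxk (0.116), pyridoxal kinase, with the median gene at 0.435. Ephx1 had 24.1, 35.5 and 25.4 CPM after dexmedetomidine and 41.4, 42.4 and 42.2 CPM after vehicle, with dexmedetomidine replicate 2 nearest to the vehicle libraries. The nearest genes were picked by closeness to the arm means over these same libraries. The place of replicate 2 in Leo1 and Ephx1 thus follows from the choice and adds nothing to the clock results. Among the members, Npas2 (0.133) and Cry2 (0.0974) lay closest to the mean of their own arm, to which they contribute. Arntl (0.303) and Clock (0.312) were farther from the activator mean than Leo1, Dio2 and March1 were. Per3 (0.327) was the farthest repressor from its mean.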

How the data were processed

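Counts of reads per gene, raw and with a length in bases for each gene, are what the authors deposited, in 1 table. The submitters' processing notes name mm9, HTSeq and Trim Galore. Versions, aligner, annotation and strand setting were not given in the sources used, so reads from overlapping or antisense genes cannot be told apart. The 5 rows that name no gene were left out. Of these, reads aligned to several places were 31.2%, 39.5% and 39.4% of the table in dexmedetomidine replicates 1, 2 and 3. In vehicle replicates 1, 2 and 3 they were 31.4%, 28.6% and 28.05%. The part of this difference in the clock results was not tested. Symbols (32897 of 37620 genes matched) and GC content came from GENCODE M21 on GRCm38, promoters from RefSeq. Titles gave the groups, 3 libraries each.

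Genes passing filterByExpr were tested with edgeR 4.0.16 (TMM, robust quasi-likelihood F test, Benjamini-Hochberg over all 14738 genes) in R 4.3.3, with DESeq2 1.42.0 and limma 3.58.1 as alternatives. Log2 CPM used a prior count of 2. The correction took each library's trend over GC content and length (mgcv 1.9.3) as offsets, and the 409 tested genes without GC content got none. Fits were tested on simulated data. Promoter motifs were searched on both strands.

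Members and lists were chosen with earlier results of these data known. Named were all members, each list's lowest and highest fold change and 2 smallest p, the 3 genes nearest each arm, Fos and Dbp; some genes the rule names are not reported here.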

Additional observations from a re-analysis of the deposited data

How the results depend on the processing

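All 8 members kept their direction in all 135 fits of a member under another setting. These fits reuse the same 6 libraries and are not independent of each other. An adjusted p under 0.05 was reached in 15 of them, under settings that called from 1.88% to 14% of all genes fitted. The number of genes called by edgeR, 0 with all libraries, was 406 with no low count filter and lay between 0 and 1251 with 1 library left out, the highest without vehicle replicate 3. DESeq2 called 1272 genes, limma-voom 2063 and DESeq2 with the GC and length correction, chosen after seeing the data, 278. With no filter Clock was at 1.07 (adjusted p = 0.00585) and Cry2 at -0.63 (0.0303). In DESeq2, Arntl was at 1.15, Clock at 1.07, Per1 at -0.46, Cry1 at -0.63 and Cry2 at -0.63, and in limma-voom Clock was at 1.05, Per1 at -0.40, Cry1 at -0.68 and Cry2 at -0.58, all past the threshold. With 1 library left out, Clock ranged from 0.90 to 1.25, Cry1 from -0.80 to -0.50 and the repressor median from -0.80 to -0.41. The cause was not tested.

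Replicate numbers were tried as a block. Same-numbered libraries had deviations correlated at -0.0547, 0.0361 and 0.153, and not every library correlated best with its own number, so the numbers were not taken as pairs. With the replicate block edgeR called 636 genes (4.32%), Clock was at 1.10 (adjusted p = 0.0058) and Cry2 at -0.65 (0.0416). With the block and the GC and length correction it called 160 genes and none of the members.

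Reversals were confined, among the results listed, to genes outside the core loop. Under the GC and length correction, Nr1d2 was at -0.0770 (in DESeq2 -0.0771), Hlf at -0.22, Prkaa2 at -0.16 and Ppp1cb at -0.27, the last 3 the same to 2 decimals in DESeq2. With the block added Nr1d2 was at -0.0822, Hlf at -0.28, Prkaa2 at -0.15, Ppp1cb at -0.25 and Tipin at -0.0169. With the correction and without vehicle replicate 2, also chosen after seeing the data, Nr1d2 was at -0.0784, Hlf at -0.31, Prkaa2 at -0.23, Ppp1cb at -0.0915, Fos at 0.23 and Ier2 at 0.17. Hlf was at -0.00278 with the replicate block and ranged from -0.32 to 0.25 with 1 library left out, and Fos from -2.97 to 0.16. Under a mean CPM of at least 5 Npas2 was left out, so the activator median and the arm difference had no value there. Npas2 had the lowest depth, at 102 to 351 counts per library.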

Other observations

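Dexmedetomidine replicate 2 also differed from its group in some clock outputs, genes picked here after their values were seen. Tef, a D-box factor, measured 110, 224 and 139 CPM in dexmedetomidine replicates 1, 2 and 3, against 167, 156 and 206 CPM in vehicle replicates 1, 2 and 3. Hlf had 19.7, 41.2 and 24.7 CPM after dexmedetomidine, against 26.7, 21.5 and 34.6 CPM after vehicle. For both, that library was the highest of the 6. Ciart, a repressor of the activator pair, had 7.33, 14.6 and 7.81 CPM after dexmedetomidine, against 9.15, 18.3 and 11.9 CPM after vehicle. The deubiquitinase gene Usp2 had 81.2, 132 and 101 CPM after dexmedetomidine, against 84.9, 85.4 and 119 CPM after vehicle. Other genes of the pathway did not follow. In Nr1d1 (69.7 CPM), Nfil3 (22.5 CPM) and Tipin (3.64 CPM), dexmedetomidine replicate 2 was the lowest of its group. In Nr1d2, Bhlhe40, Bhlhe41 and Timeless it lay between the other libraries of its group. In Dbp, at 41.4 CPM, and in Rora, at 43.2 CPM, the same library stayed outside the vehicle range. Its mitochondrial share of 36.9% was close to the 38.2% of dexmedetomidine replicate 3, while dexmedetomidine replicate 1 had 27.1%. The part of that share in these values was not tested. On the first principal component (axis of largest spread) of log2 CPM over all tested genes, dexmedetomidine replicates were at -17.6, -28.1 and -46.6. Vehicle replicates were at 26.3, 69.8 and -3.67. There dexmedetomidine replicate 1, not replicate 2, was the nearest of its group to the vehicle libraries.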
